A study of Homo sapiens with 12 samples.

Results

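The ATF4 branch of the integrated stress response was followed in A375 cells, an established human melanoma cell line that carries mutant BRAF, after 8 h of exposure to drug. It was followed through 36 genes taken from a list of symbols, namely stress kinases and endoplasmic reticulum (ER) sensors, ATF4 and its partner factors, their stress effectors, and enzymes and transporters for amino acids. These 36 genes are a subset of the 58347 genes in each file, and all of them were among the 16740 genes with enough counts to be tested. RNA-seq counts were available for 12 libraries in 4 groups of 3 replicates: DMSO, the dimethyl sulfoxide vehicle; tretinoin, a retinoid that activates retinoic acid receptors; vemurafenib, an inhibitor of the mutant BRAF kinase; and the vemurafenib + tretinoin combination. Every group, the vehicle included, was listed at 5 µM, and all libraries came from the same parental line without further genetic change. The drugs were applied in triplicate to a single cell line, so each p-value reflects the spread between these libraries, part of which may be technical.

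In the integrated stress response, kinases such as EIF2AK3 (PERK, which senses unfolded protein in the ER) and EIF2AK4 (GCN2, which senses uncharged tRNA when amino acids run short) phosphorylate the alpha subunit of the translation factor eIF2. General translation then slows while the ATF4 mRNA is translated more, so ATF4 protein is set largely by translation and the counts used here measure mRNA alone. ATF4 binds with CEBP partners to CEBP-ATF response elements and switches on genes that make and import amino acids, together with feedback and death-linked genes such as DDIT3, TRIB3, CHAC1 and PPP1R15A. ERN1 (IRE1) and XBP1 belong to a parallel ER branch in which ERN1 splices the XBP1 mRNA. Gene counts do not separate the spliced from the unspliced XBP1 form.

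Library totals ran from 13510235 to 21534377 counts, and levels are given as counts per 1000000 counts of the library (CPM) after TMM normalization, in the order of replicates 1, 2 and 3. Known targets of both drugs served as a check of the labels. DUSP6, an ERK-induced phosphatase, stood at 127, 116 and 122 CPM in DMSO and 1.40, 1.92 and 2.10 CPM in vemurafenib (log2 fold change -6.07 ± 0.13 (SE), edgeR adjusted p = 9.36e-16), and the ERK targets SPRY4 and ETV5 fell by 6.55 and 4.67 on the same scale. DHRS3, a retinoid-induced retinaldehyde reductase, stood at 24.4, 19.3 and 18.6 CPM in DMSO and 143, 159 and 166 CPM in tretinoin (log2 fold change 2.91 ± 0.09 (SE), edgeR adjusted p = 1.9e-12). The retinoic acid receptor gene RARB gave 0.82 in tretinoin (edgeR adjusted p = 0.101) and CYP26A1, a retinoic acid hydroxylase, stayed under 1 CPM in all libraries. DHRS3 and RARB were also called higher with vemurafenib (26.4% of all genes were), so a rise of DHRS3 is not particular to tretinoin. In the combination all 3 retinoid targets were called higher than in DMSO (27.1% of all genes were). DHRS3 and RARB were also higher there than in vemurafenib (2.27% of all genes were). Of 10 melanoma or melanocyte markers, 6 passed the count filter, AXL and NGFR foremost, whereas SOX10 had no count in any library and TYR at most 0.0453 CPM. Of 8 markers of other cells, 4 passed, with a summed level of 7.60 to 12.6 CPM in DMSO, 7.78 to 13.9 in tretinoin, 15.8 to 17.6 in vemurafenib and 11.5 to 14.7 in the combination. PTPRC and COL1A1 were the genes of that list called higher with vemurafenib, CD68 had no count in 10 libraries, and the part of these markers in the results was not tested. In RNA from whole cultures, fewer cells of a kind and less RNA per cell cannot be told apart.

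Per kilobase of exon, SLC7A5 was the most abundant member in DMSO at 477 CPM per kb, followed by SLC3A2 at 222. These encode the light and heavy chain of the LAT1 leucine exchanger. ATF4 and the serine synthesis enzyme PSAT1 came next at 176 and 175 CPM per kb, a gap smaller than their spread between replicates. At the other end of the per-kilobase order lay ERN1 at 0.686, VLDLR at 0.914 and ASNS at 0.179 CPM per kb. ASNS, the asparagine synthetase, was counted only 8 to 53 times per library. Of its 4455 exon bases, 1985 are shared on the same strand with AC079781.5, and a fragment that falls on both genes is given to neither by the counting used, so the ASNS level is a lower bound and its changes rest on few counts.

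Short stretches of 4 promoters are printed because they hold the letters that ATF4 with its CEBP partners, or the ER stress factors, are known to bind. RefSeq windows (GRCh38.p14) of 250 bases before to 50 after the annotated start were matched for 30 of the 36 members, and none was held for SLC7A11, PYCR1, PSPH, SHMT2, ALDH1L2 and GPT2. The element TGATGNAA, searched on both strands, lay in 5 of the 30 member windows (16.7%), those of ATF3, ASNS, CHAC1, SLC3A2 and SLC7A1, and in 1003 of all 27305 windows (3.67%). The ER stress element, CCAAT and CCACG separated by 9 bases, lay in the XBP1 window alone among the 30 and in 22 of the 27305 (0.081%). The 2 searches shared no bases in any member window. Capitals mark the match, read 5′ to 3′ on the strand of the gene.
ASNS (chr7:97872458-97872487, minus strand): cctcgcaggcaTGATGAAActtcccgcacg
ATF3 (chr1:212565205-212565234, plus strand): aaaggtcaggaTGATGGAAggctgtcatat
CHAC1 (chr15:40953251-40953280, plus strand): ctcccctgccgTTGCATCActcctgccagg
XBP1 (chr22:28800598-28800626, minus strand): gctggCCAATCGCGGAGGGCCACGaccgt
The CHAC1 match is on the opposite strand, so its capitals are the reverse complement of the element. In GENCODE 29 the ASNS and CHAC1 stretches lie within a first exon of a longer transcript of their gene, while the ATF3 and XBP1 stretches lie outside exons of theirs. A match describes letters only and does not show that a factor was bound there.

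The first question was how vemurafenib alone moved these genes, relative to DMSO. Of the 36 members, 16 were higher and 8 lower at an adjusted p below 0.05, whereas 26.4% of all genes tested were called higher and 26.3% lower. The median log2 fold change was 0.21 over the members and 0.02 over all genes. The enzymes moved most evenly, with 8 of the 12 serine, one-carbon and other amino acid enzymes higher and none lower, while the 8 transporters split into 1 higher and 4 lower. The receptor VLDLR, the enzymes ALDH1L2 and CTH, the glycine transporter SLC6A9 and the factor DDIT3 had the greatest rises, and PPP1R15A, TRIB3, CEBPB, SLC7A1 and SLC1A5 the greatest falls. The plot of fold changes by role shows both directions side by side.

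**Figure D1:**
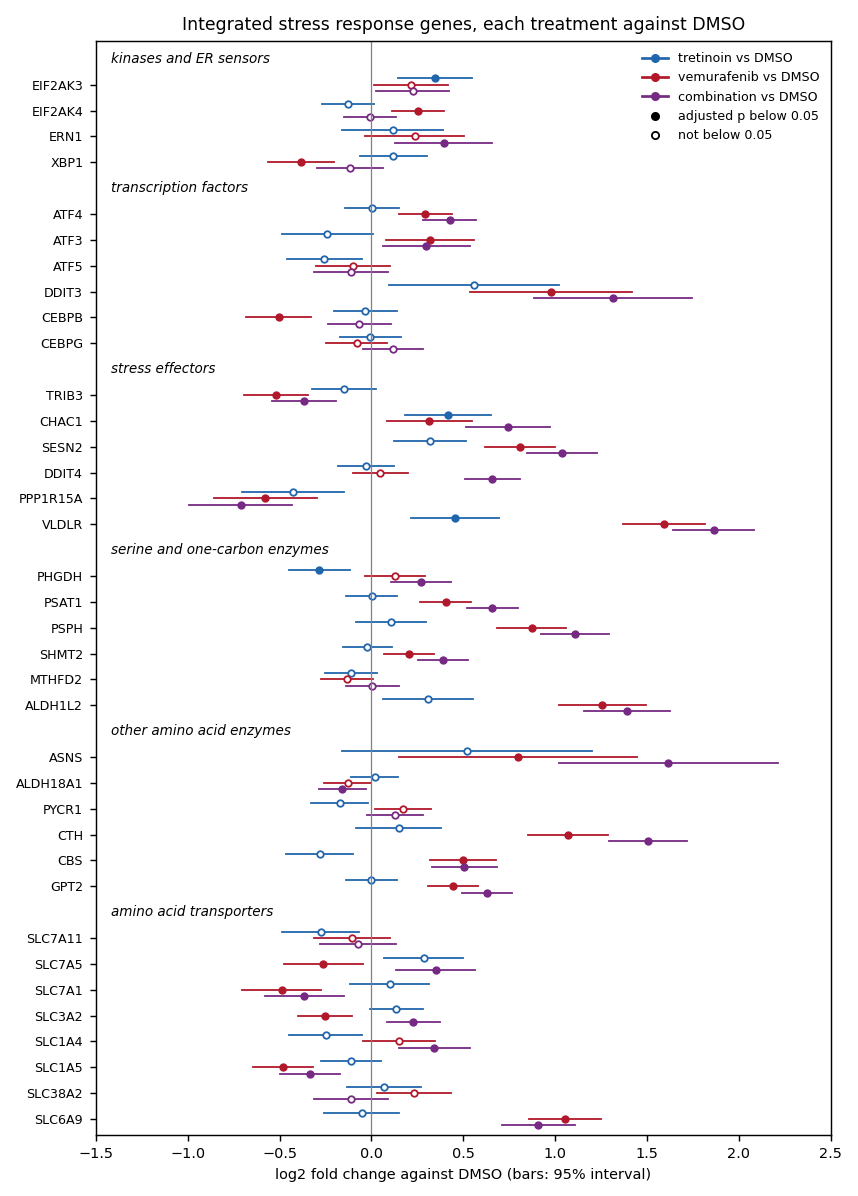
Log2 fold change of each of the 36 members against DMSO on the x axis, grouped by role on the y axis, for tretinoin (blue), vemurafenib (red) and the combination (purple), with 95% intervals from the edgeR fit as bars. Filled points have an adjusted p below 0.05. Enzymes of serine synthesis and of sulfur amino acids lie to the right of 0 with vemurafenib and the combination, whereas TRIB3, PPP1R15A, SLC7A1 and SLC1A5 lie to the left with both.

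Among the transcription factors, ATF4 (ENSG00000128272.14, chr22:39519695-39522685, plus strand) rose modestly with vemurafenib. Its level was 428, 447 and 448 CPM in DMSO and 535, 522 and 565 CPM in vemurafenib, with no overlap between the groups (log2 fold change 0.29 ± 0.07 (SE), edgeR adjusted p = 0.00176). DDIT3 (ENSG00000175197.11, chr12:57516588-57521737, minus strand), the CHOP factor linked to cell death in prolonged stress, was scarce. It stood at 5.41, 3.78 and 4.49 CPM in DMSO and 7.48, 9.81 and 9.73 CPM in vemurafenib, a 1.97-fold rise (log2 0.98 ± 0.21 (SE), edgeR adjusted p = 0.000775). Exons of other genes cover 39.6% of the DDIT3 exon bases, so part of its fragments went uncounted in every group. ATF3, a stress-induced factor of the same family, rose by 0.32 on the log2 scale (SE 0.11, edgeR adjusted p = 0.025). That call was lost without DMSO replicate 1, vemurafenib replicate 2 or vemurafenib replicate 3, and over the 12 single-library omissions the ATF3 value lay between 0.22 and 0.39 with a highest edgeR adjusted p of 0.14. CEBPB (ENSG00000172216.5, chr20:50190734-50192689, plus strand), a CEBP-family dimer partner, fell instead. Its DMSO libraries stood at 82.8, 90.1 and 80.9 CPM and its vemurafenib libraries at 60.2, 59.6 and 58.9 CPM, well apart (log2 fold change -0.51 ± 0.08 (SE), edgeR adjusted p = 6.48e-05). The partner CEBPG gave -0.08 (edgeR adjusted p = 0.403) and ATF5, a relative of ATF4, -0.10 (edgeR adjusted p = 0.406), neither past the threshold.

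The kinases and sensors were divided. EIF2AK4 (ENSG00000128829.11, chr15:39934146-40035591, plus strand) stood at 104, 113 and 119.8 CPM in DMSO and 131, 138 and 133 CPM in vemurafenib, all vemurafenib libraries above all DMSO libraries (log2 fold change 0.25 ± 0.07 (SE), edgeR adjusted p = 0.00395). XBP1 (ENSG00000100219.16, chr22:28794555-28800597, minus strand) went from 90.3, 119 and 104 CPM to 74.3, 81.7 and 83.6 CPM, again without overlap but downward (log2 fold change -0.38 ± 0.09 (SE), edgeR adjusted p = 0.00116). EIF2AK3 gave 0.22 (edgeR adjusted p = 0.0667) and ERN1 0.24 (edgeR adjusted p = 0.131). Those differences did not pass the threshold, although every vemurafenib library lay above every DMSO library for both genes.

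Stress effectors moved in both directions with vemurafenib. VLDLR (ENSG00000147852.15, chr9:2621834-2660053, plus strand), a lipoprotein receptor that PERK and ATF4 are known to induce, stood at 8.44, 8.04 and 9.13 CPM in DMSO and 26.3, 26.7 and 24.5 CPM in vemurafenib. This 3.01-fold rise was the greatest of the 36 members (log2 1.59 ± 0.11 (SE), edgeR adjusted p = 1.38e-09). SESN2 (ENSG00000130766.4, chr1:28259527-28282491, plus strand), a leucine sensor that restrains mTORC1, stood at 25.5, 23.8 and 29.7 CPM in DMSO and 48.5, 46.2 and 44.1 CPM in vemurafenib (log2 fold change 0.81 ± 0.09 (SE), edgeR adjusted p = 8.93e-07). CHAC1 (ENSG00000128965.11, chr15:40952962-40956519, plus strand), which degrades glutathione, had 15.5, 21.2 and 21.1 CPM in DMSO and 25.5, 23.8 and 22.8 CPM in vemurafenib, and DMSO replicate 1 lay below the other DMSO libraries. Its call (log2 fold change 0.32 ± 0.11 (SE), edgeR adjusted p = 0.023) was lost without DMSO replicate 1 or vemurafenib replicate 1, with values between 0.18 and 0.38 with a highest edgeR adjusted p of 0.141. TRIB3, a pseudokinase that feeds back on ATF4, fell by 0.52 on the log2 scale (SE 0.08, edgeR adjusted p = 4.77e-05). PPP1R15A (GADD34), the phosphatase subunit that reverses eIF2 phosphorylation, fell by 0.58 (SE 0.13, edgeR adjusted p = 0.00141). So the feedback genes TRIB3 and PPP1R15A were lower in the same libraries in which ATF4, DDIT3 and SESN2 mRNA were higher. DDIT4, an mTORC1 inhibitor also called REDD1, gave 0.05 (edgeR adjusted p = 0.601).

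**Figure D2:**
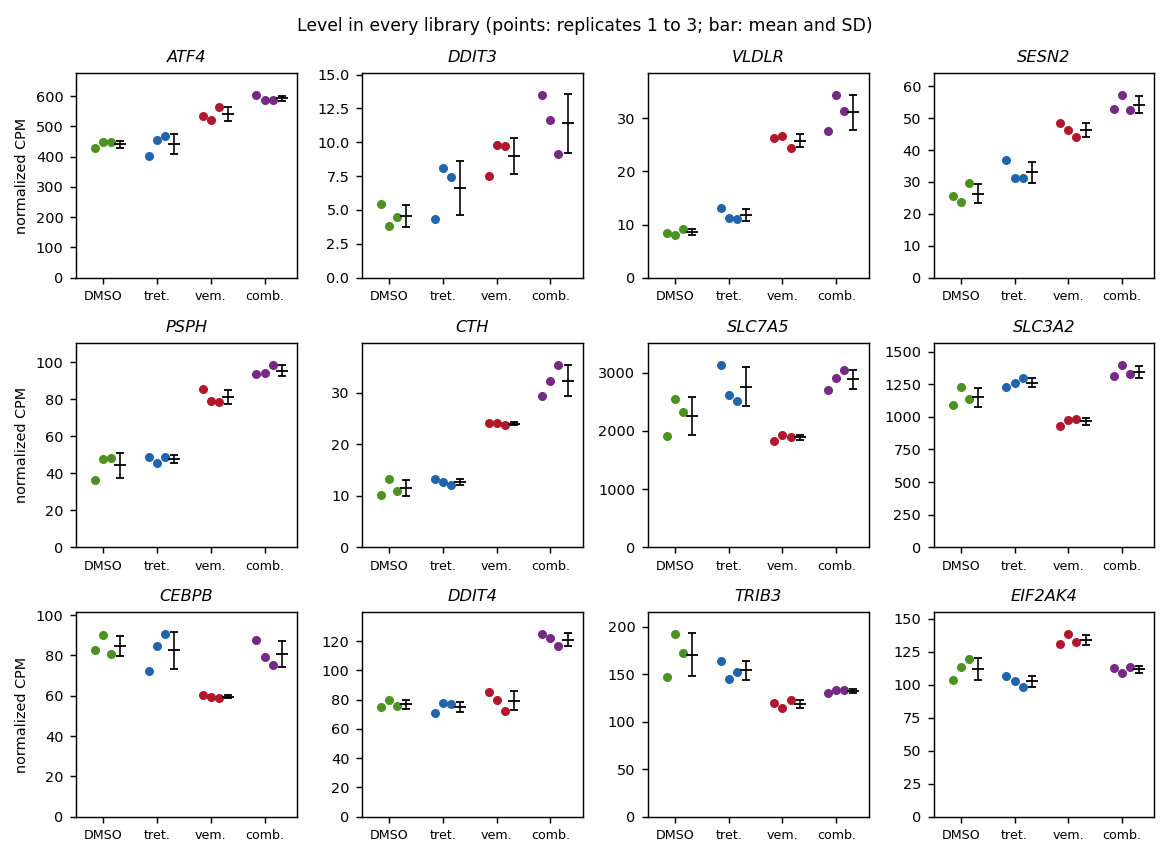
Level of 12 members in every library, in TMM-normalized CPM on y axes that start at 0, for DMSO (green), tretinoin (blue), vemurafenib (red) and the combination (purple). Points are replicates 1, 2 and 3 from left to right, and the black bar beside them is the mean and SD of the 3. ATF4, VLDLR, SESN2, PSPH and CTH are higher in all libraries with vemurafenib, DDIT4 is high in the combination libraries alone, and SLC7A5, SLC3A2 and CEBPB have their lowest group means in vemurafenib alone.

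Of the 6 serine and one-carbon enzymes, 4 rose with vemurafenib and none fell, beside 26.4% of all genes higher and 26.3% lower. ALDH1L2 (ENSG00000136010.13, chr12:105019784-105084577, minus strand), a mitochondrial formyltetrahydrofolate dehydrogenase, stood at 19.3, 20.8 and 20.8 CPM in DMSO and 50.3, 51.3 and 43.8 CPM in vemurafenib, a 2.39-fold rise (log2 1.26 ± 0.11 (SE), edgeR adjusted p = 5.12e-08). PSPH (ENSG00000146733.13, chr7:56011051-56051604, minus strand), the phosphatase of the last step of serine synthesis, stood at 36.6, 48.0 and 48.3 CPM in DMSO and 85.4, 79.2 and 78.6 CPM in vemurafenib (log2 fold change 0.87 ± 0.09 (SE), edgeR adjusted p = 2.69e-07). The groups of both genes were far apart. PSAT1, the aminotransferase of the preceding step, rose by 0.40 (SE 0.07, edgeR adjusted p = 6.15e-05), and the serine hydroxymethyltransferase SHMT2 by 0.20 (SE 0.06, edgeR adjusted p = 0.0125). The SHMT2 call was lost without vemurafenib replicate 3, with values between 0.18 and 0.22 with a highest edgeR adjusted p of 0.0553 over the 12 omissions. PHGDH, which opens the pathway, gave 0.13 (edgeR adjusted p = 0.181), and MTHFD2, a mitochondrial folate enzyme, -0.13 (edgeR adjusted p = 0.109). Along the serine synthesis pathway the log2 fold change was thus 0.13 for the first enzyme, 0.40 for the second and 0.87 for the third.

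Other amino acid enzymes followed the same direction, with 4 of 6 higher, beside 26.4% of all genes. CTH (ENSG00000116761.11, chr1:70411218-70439851, plus strand), which makes cysteine from cystathionine, stood at 10.2, 13.2 and 10.9 CPM in DMSO and 24.1, 24.1 and 23.6 CPM in vemurafenib, with all 3 vemurafenib libraries within 1 CPM of each other (log2 fold change 1.07 ± 0.10 (SE), edgeR adjusted p = 1.36e-07). ASNS (ENSG00000070669.16, chr7:97852118-97872542, minus strand) stood at 1.03, 0.946 and 0.422 CPM in DMSO and 1.56, 1.20 and 1.32 CPM in vemurafenib (log2 fold change 0.80 ± 0.31 (SE), edgeR adjusted p = 0.0367). Behind these ASNS levels stood 16, 14 and 8 counts in DMSO and 30, 25 and 22 in vemurafenib. The call was lost without DMSO replicate 3, vemurafenib replicate 1 or vemurafenib replicate 3, with values between 0.45 and 1.03 with a highest edgeR adjusted p of 0.226, and in DESeq2 (adjusted p = 0.0521). CBS, which forms cystathionine from homocysteine and serine, rose by 0.50 (SE 0.08, edgeR adjusted p = 8.82e-05), and GPT2, the mitochondrial alanine aminotransferase, by 0.44 (SE 0.06, edgeR adjusted p = 1.85e-05). CBS has a near-identical copy, CBSL, whose counts nearly equalled those of CBS in every library (for example 730 against 736 in DMSO replicate 1), so the 2 genes cannot be told apart here. The proline enzymes ALDH18A1 and PYCR1 gave -0.13 and 0.17 (edgeR adjusted p = 0.0841 and 0.0556).

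Transporters stood apart from the enzymes, since 4 of the 8 fell with vemurafenib and 1 rose, beside 26.3% of all genes lower and 26.4% higher. The riser was SLC6A9 (ENSG00000196517.11, chr1:43991500-44031467, minus strand), the glycine transporter GLYT1, which went from 35.6, 37.6 and 40.8 CPM in DMSO to 79.8, 81.2 and 75.7 CPM in vemurafenib (log2 fold change 1.05 ± 0.09 (SE), edgeR adjusted p = 5.56e-08). SLC7A1 (ENSG00000139514.12, chr13:29509410-29595688, minus strand), the cationic amino acid transporter CAT1, went from 252, 305 and 314 CPM to 201, 215 and 203 CPM (log2 fold change -0.49 ± 0.10 (SE), edgeR adjusted p = 0.000649). The glutamine transporter SLC1A5 fell by 0.48 (SE 0.08, edgeR adjusted p = 5.65e-05). SLC3A2 (ENSG00000168003.16, chr11:62856102-62888875, plus strand) stood at 1087, 1227 and 1136 CPM in DMSO and 933, 975 and 984 CPM in vemurafenib, with no overlap (log2 fold change -0.25 ± 0.07 (SE), edgeR adjusted p = 0.00503). SLC7A5 (ENSG00000103257.8, chr16:87830023-87869488, minus strand) stood at 1909, 2550.4 and 2326 CPM in DMSO and 1833, 1932 and 1897 CPM in vemurafenib, where DMSO replicate 1 fell within the vemurafenib range (log2 fold change -0.26 ± 0.10 (SE), edgeR adjusted p = 0.0394). The SLC7A5 call was lost without DMSO replicate 2, DMSO replicate 3 or any 1 vemurafenib library, with values between -0.37 and -0.17 with a highest edgeR adjusted p of 0.203. The cystine exchanger SLC7A11 gave -0.10, the neutral amino acid transporters SLC1A4 and SLC38A2 gave 0.15 and 0.23, and none of the 3 passed the threshold. With scaling by total counts in place of TMM, the median of all genes moved to 0.21, the members split into 23 higher and 5 lower beside 39.3% of all genes higher and 15.7% lower, and XBP1, SLC7A5 and SLC3A2 were no longer called. Under that scaling CEBPB, TRIB3, PPP1R15A, SLC7A1 and SLC1A5 stayed called with falls of 0.31, 0.32, 0.38, 0.29 and 0.28 on the log2 scale, and EIF2AK4, ATF4, ATF3, CHAC1 and SHMT2 with rises of 0.45, 0.49, 0.51, 0.51 and 0.40. DMSO replicate 1 was the lowest DMSO library for 27 of the 36 members and DMSO replicate 2 the highest for 25.

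The combination was then compared with the same DMSO libraries. Of the 36 members, 21 were called higher (27.1% of all genes tested) and 5 lower (26.5% of all genes), and the median log2 fold change was 0.32 against 0.03 over all genes. Because both comparisons share the DMSO controls, their values are only set side by side. ATF4 reached 603, 588 and 586 CPM in the combination (log2 fold change 0.43 ± 0.07 (SE), edgeR adjusted p = 5.62e-05). DDIT3 reached 13.5, 11.6 and 9.15 CPM (log2 fold change 1.32 ± 0.20 (SE), edgeR adjusted p = 3.35e-05), and VLDLR 27.6, 34.4 and 31.3 CPM, 3.64-fold above DMSO (edgeR adjusted p = 1.34e-10). SESN2 and CHAC1 were higher by 1.04 and 0.74 on the log2 scale. All combination libraries lay above all DMSO libraries for these 5 genes.

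In the serine and one-carbon group, 5 of 6 enzymes rose with the combination, beside 27.1% of all genes. PHGDH (ENSG00000092621.12, chr1:119648411-119744226, plus strand) stood at 581, 625 and 558 CPM in DMSO and 703, 701 and 724 CPM in the combination (log2 fold change 0.27 ± 0.08 (SE), edgeR adjusted p = 0.00755), a call lost without DMSO replicate 3, with values between 0.23 and 0.32 with a highest edgeR adjusted p of 0.0526. PSPH reached 93.5, 94.3 and 98.7 CPM, and ALDH1L2 50.4, 55.2 and 53.8 CPM, with log2 fold changes of 1.11 and 1.39. PSAT1 and SHMT2 rose by 0.66 and 0.39, and MTHFD2 gave 0.01 (95% interval -0.14 to 0.15). CTH reached 29.4, 32.2 and 35.4 CPM, 2.84-fold above DMSO (edgeR adjusted p = 1.38e-09). ASNS reached 2.59, 2.23 and 2.40 CPM, from 47, 48 and 53 counts (log2 fold change 1.62 ± 0.28 (SE), edgeR adjusted p = 0.000113), and this call held in every alternative in which ASNS was tested. CBS and GPT2 were higher by 0.50 and 0.63. ALDH18A1 was the enzyme called lower (-0.16 ± 0.06 (SE), edgeR adjusted p = 0.0374). That small fall was lost without DMSO replicate 2, DMSO replicate 3, combination replicate 1 or combination replicate 2, with values between -0.20 and -0.12 with a highest edgeR adjusted p of 0.144, and its sign turned under total counts.

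Of the 8 transporters, 4 were higher (50%) and 2 lower (25%) in the combination than in DMSO. Of all genes, 27.1% were higher and 26.5% lower, so the share of transporters lower was near that of all genes. SLC7A5 reached 2708, 2903 and 3042 CPM and SLC3A2 1312, 1399 and 1328 CPM, so both chains of LAT1 were above DMSO (log2 fold changes 0.35 ± 0.10 (SE), edgeR adjusted p = 0.00771, and 0.23 ± 0.07 (SE), edgeR adjusted p = 0.0099) and below it with vemurafenib alone. The SLC7A5 rise was lost without DMSO replicate 1, with values between 0.24 and 0.45 with a highest edgeR adjusted p of 0.0549. The SLC3A2 rise was lost without DMSO replicate 1 or combination replicate 2, with values between 0.18 and 0.28 with a highest edgeR adjusted p of 0.0598. With tretinoin alone the mean of SLC7A5 was 581 CPM per kb, beside 477 in DMSO and 608 in the combination. That of SLC3A2 was 244 in tretinoin, beside 222 in DMSO and 260 in the combination. Neither was called in tretinoin against DMSO or in the combination against tretinoin. Against DMSO, SLC1A4 rose by 0.34 and SLC6A9 by 0.91, while SLC7A1 and SLC1A5 fell by 0.36 and 0.34. Under total counts, beside 37.3% of all genes higher and 17.4% lower, SLC7A1 lost its call (log2 fold change -0.20, edgeR adjusted p = 0.113) and SLC1A5 gave -0.17 (edgeR adjusted p = 0.0471). SLC7A11 and SLC38A2 gave -0.07 and -0.11 with intervals that included 0. Of the sensors, ERN1 rose by 0.39 (edgeR adjusted p = 0.0133), a call lost without DMSO replicate 3 or combination replicate 1 with values between 0.34 and 0.46 with a highest edgeR adjusted p of 0.0635. EIF2AK3, EIF2AK4 and XBP1 gave 0.22, -0.01 and -0.12, none past the threshold. ATF3 rose by 0.30 (edgeR adjusted p = 0.0338) but lost its call without DMSO replicate 1, combination replicate 1 or combination replicate 2, with values between 0.20 and 0.36 with a highest edgeR adjusted p of 0.181. TRIB3 and PPP1R15A again fell, by 0.37 and 0.71, with TRIB3 at -0.20 under total counts (edgeR adjusted p = 0.0379). CEBPB, CEBPG, ATF5 and PYCR1 gave -0.07, 0.12, -0.11 and 0.13, none of them called.

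Few of these genes were called with tretinoin alone. Relative to DMSO, 3 of the 36 members were called higher and 1 lower, against 3.48% and 2.2% of all genes tested, and the member median was 0.00. VLDLR stood at 13.05, 11.3 and 11.01 CPM in tretinoin (log2 fold change 0.45 ± 0.11 (SE), edgeR adjusted p = 0.0266) and CHAC1 at 28.8, 24.5 and 24.0 CPM (log2 fold change 0.41 ± 0.11 (SE), edgeR adjusted p = 0.0358). EIF2AK3 (ENSG00000172071.11, chr2:88556741-88627576, minus strand) stood at 11.99, 12.3 and 11.3 CPM in DMSO and 16.3, 14.5 and 14.5 CPM in tretinoin, with no overlap (log2 fold change 0.35 ± 0.10 (SE), edgeR adjusted p = 0.0422). PHGDH was the member called lower, at 423, 506 and 522 CPM in tretinoin (log2 fold change -0.28 ± 0.08 (SE), edgeR adjusted p = 0.0424). Tretinoin replicate 1, the library with the lowest total count, was the highest of its group for VLDLR, CHAC1 and EIF2AK3 and the lowest for PHGDH. Over the 36 members it was the highest of its group for 21 and the lowest for 11. None of the 4 calls held throughout. The VLDLR call was lost without DMSO replicate 1, DMSO replicate 2 or tretinoin replicate 1, with values between 0.38 and 0.51 with a highest edgeR adjusted p of 0.122. The CHAC1 call was lost without DMSO replicate 1, tretinoin replicate 1 or 2, vemurafenib replicate 2 or combination replicate 2, with values between 0.29 and 0.49 with a highest edgeR adjusted p of 0.112. EIF2AK3 kept its call in 2 of the 12 single-library omissions, with values between 0.29 and 0.38 with a highest edgeR adjusted p of 0.127, and PHGDH in 2, with values between -0.34 and -0.20 with a highest edgeR adjusted p of 0.212. Without tretinoin replicate 1 the members called were DDIT3, higher, and SLC7A11 and SLC1A4, lower, beside 3.06% of all genes higher and 2.06% lower. With no count filter DDIT3, CHAC1, VLDLR and SLC7A5 were higher and PPP1R15A and PHGDH lower, beside 1.76% and 1.92% of all genes. The mean of DDIT3 was 3.49 CPM per kb in DMSO and 5.06 in tretinoin, and that of ASNS 0.18 and 0.25. Neither was called in the main fit. With only the DMSO and tretinoin libraries in the edgeR fit no member was called, beside 1.54% of all genes higher and 0.468% lower. In that fit 7 members had an unadjusted p below 0.05 upward and 6 downward. The share of all genes at that unadjusted threshold was taken in the main fit alone, at 11.4% upward and 12% downward. DESeq2 on all libraries called 4 higher and 3 lower, beside 3.91% and 3.79% of all genes. Those higher were EIF2AK3, CHAC1, SESN2 and VLDLR, and those lower PPP1R15A, PHGDH and CBS. SESN2 (0.32, edgeR adjusted p = 0.0531) and PPP1R15A (-0.43, edgeR adjusted p = 0.0684) were among several members that did not overlap DMSO but missed the threshold. ATF4 stood at 403, 455 and 467 CPM in tretinoin (log2 difference 0.00, 95% interval -0.14 to 0.15).

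Adding tretinoin to vemurafenib was tested by comparing the combination with vemurafenib alone, which uses none of the DMSO or tretinoin libraries to set the difference. Of the 36 members, 7 were called higher and 1 lower, whereas 2.27% and 2.2% of all genes were called. The member median was 0.15 and that of all genes 0.00. SLC7A5, SLC3A2, DDIT4 and CEBPB were the members with a call that held in all 20 alternatives. SLC7A5 stood 1.53-fold higher than with vemurafenib alone (log2 0.61 ± 0.10 (SE), edgeR adjusted p = 0.00104) and SLC3A2 1.40-fold (log2 0.48 ± 0.07 (SE), edgeR adjusted p = 0.000224), each with every combination library above every vemurafenib library. The ratio of SLC7A5 to SLC3A2 per kilobase lay between 1.92 and 2.79 over the 12 libraries. Both extremes lay outside the vemurafenib and combination groups. The ratio was 2.1439, 2.1617 and 2.1038 in vemurafenib and 2.2529, 2.264 and 2.4995 in the combination. Every combination library thus lay above every vemurafenib library in this ratio, a difference that was not tested. CEBPB stood at 87.8, 79.3 and 75.3 CPM in the combination against 60.2, 59.6 and 58.9 CPM in vemurafenib (log2 fold change 0.44 ± 0.08 (SE), edgeR adjusted p = 0.00286), and its combination range overlapped that of DMSO.

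DDIT4 (ENSG00000168209.4, chr10:72273920-72276036, plus strand) had the clearest pattern of this kind. It stood at 74.8, 79.9 and 75.5 CPM in DMSO, at 71.0, 77.4 and 76.9 CPM in tretinoin and at 85.3, 79.9 and 72.4 CPM in vemurafenib. These 3 groups overlapped. In the combination it stood at 125, 122 and 116 CPM, above all other libraries (combination against vemurafenib, log2 fold change 0.61 ± 0.07 (SE), edgeR adjusted p = 2.1e-05). The test of the difference between the tretinoin effect with and without vemurafenib, the interaction of the drugs, gave 0.64 ± 0.10 (SE), edgeR adjusted p = 0.00553. DDIT4 was the only one of the 36 members called in the interaction, where 0.382% of all genes were called higher and 0.424% lower, and its call held in all 18 alternatives in which the interaction could be fitted. At an unadjusted p below 0.05, 13 members had a higher and 2 a lower interaction, beside 7.55% and 8.09% of all genes. That split was not stable, at 5 and 3 under total counts and 6 and 2 without DMSO replicate 2, and over the 12 single-library omissions the higher count ran from 6 to 16. The shares of all genes just given belong to the main fit and were not taken in these other fits, so these counts have no background beside them. Antisense DDIT4-AS1 covers 41.2% of the DDIT4 exon bases and had no count, and strand was not used in the counting, so fragments over both went to neither.

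The other members called against vemurafenib alone had smaller or less stable differences. CTH stood at 29.4, 32.2 and 35.4 CPM against 24.1, 24.1 and 23.6 CPM (log2 fold change 0.44 ± 0.09 (SE), edgeR adjusted p = 0.00859), a call lost without combination replicate 3, with values between 0.36 and 0.50 with a highest edgeR adjusted p of 0.0721. CHAC1 stood at 30.8, 32.8 and 33.3 CPM against 25.5, 23.8 and 22.8 CPM (log2 fold change 0.43 ± 0.11 (SE), edgeR adjusted p = 0.0228). Its call was lost without vemurafenib replicate 2 or 3 or combination replicate 2 or 3, with values between 0.39 and 0.47 with a highest edgeR adjusted p of 0.1. PSAT1 (ENSG00000135069.13, chr9:78297143-78330093, plus strand) stood at 368, 399 and 379.6 CPM in DMSO, 405, 367 and 376 in tretinoin, 518, 512 and 488 in vemurafenib and 582, 615 and 614 in the combination. The PSAT1 call (log2 fold change 0.25 ± 0.07 (SE), edgeR adjusted p = 0.0325) was lost under total counts, at 0.22. It was also lost without any 1 vemurafenib library or without combination replicate 2 or 3, with values between 0.23 and 0.28 with a highest edgeR adjusted p of 0.15. EIF2AK4 was the member called lower, at 113, 109 and 114 CPM, back within the DMSO range (log2 fold change -0.26 ± 0.07 (SE), edgeR adjusted p = 0.0281). That call was lost when any 1 vemurafenib or combination library was left out, with values between -0.28 and -0.24 with a highest edgeR adjusted p of 0.149. With the vemurafenib and combination libraries alone in the fit, 14 members were called higher and 2 lower, beside 3.58% of all genes higher and 4.2% lower. Under total counts 6 were higher and 2 lower, beside 1.92% of all genes higher and 2.59% lower. For ATF4 the combination lay above vemurafenib in every library, but the difference of 0.13 (edgeR adjusted p = 0.421) did not pass the threshold, and for XBP1 it was 0.27 (edgeR adjusted p = 0.105).

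**Figure D3:**
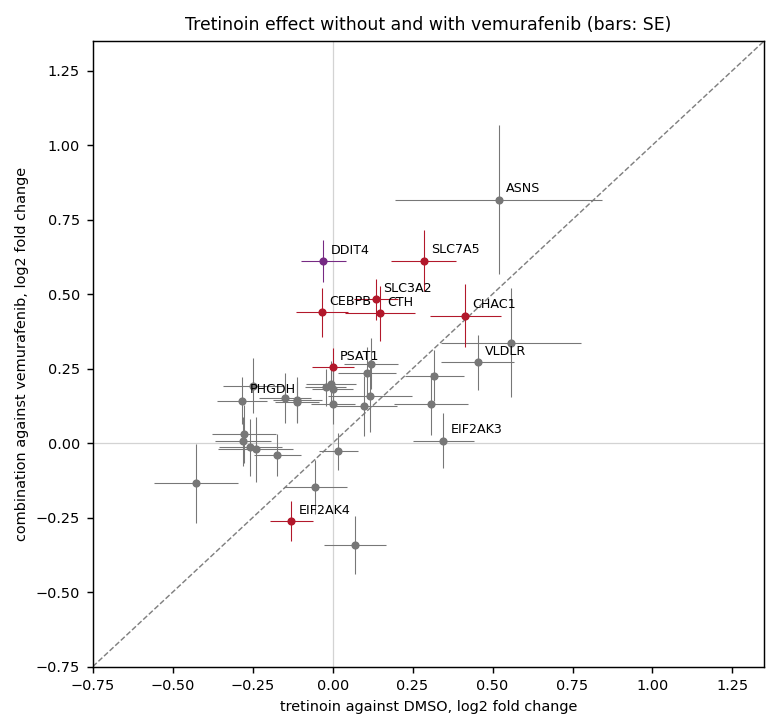
Log2 fold change of the 36 members for tretinoin against DMSO (x axis) and for the combination against vemurafenib (y axis), which share no libraries, with SE bars and the line of equal effects dashed. DDIT4 (purple, called in the interaction) lies near 0 on the x axis and at 0.61 on the y axis, the other members called against vemurafenib are red, and the remaining members are grey.

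For the other members the effect of tretinoin with vemurafenib was not shown to differ from its effect without it. The interaction of SLC7A5 was 0.33 (edgeR adjusted p = 0.285), that of SLC3A2 0.35 (edgeR adjusted p = 0.118) and that of CEBPB 0.47 (edgeR adjusted p = 0.068). PHGDH, lower with tretinoin alone, had an interaction of 0.43 (edgeR adjusted p = 0.0877). CHAC1, higher with tretinoin in both settings, had one of 0.01 with a 95% interval of -0.31 to 0.34. Across the 36 members the median interaction was 0.21, and -0.01 over all genes. DESeq2 called CEBPB, DDIT4, PHGDH and SLC3A2 higher in the interaction, beside 0.753% of all genes. Without tretinoin replicate 1, edgeR called CEBPB, DDIT4, PHGDH and SLC1A4 higher, beside 0.707% of all genes. Without tretinoin replicate 3 it called CEBPB and DDIT4 higher, beside 0.356%.

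Against tretinoin alone, the combination raised 19 of the 36 members and lowered 5, with 24.1% and 25% of all genes called. The enzymes were again the most even group, with 10 of 12 higher and ALDH18A1 lower. ASNS (1.10), CTH (1.36), VLDLR (1.41), ALDH1L2 (1.08), PSPH (0.999) and SLC6A9 (0.96) had log2 fold changes close to 1 or above. PHGDH and PYCR1 were higher by 0.55 and 0.30, SLC1A4 by 0.59. The 5 falls, XBP1, TRIB3, ALDH18A1, SLC7A1 and SLC1A5, lay between -0.46 and -0.18, and under total counts 26 members were higher and 1 lower, beside 30.2% of all genes higher and 19.5% lower. XBP1, TRIB3, ALDH18A1 and SLC1A5 lost their calls under that scaling. XBP1 lost its call without tretinoin replicate 2 or combination replicate 1. TRIB3 lost its call without tretinoin replicate 1 or any 1 combination library, and SLC1A5 lost its call without combination replicate 1 or 2. ALDH18A1 lost its call without tretinoin replicate 2 or combination replicate 1 or 2, and the CHAC1 rise was lost without tretinoin replicate 2 or 3 or combination replicate 3. Over the 12 single-library omissions the XBP1 values lay between -0.28 and -0.19 with a highest edgeR adjusted p of 0.113, those of TRIB3 between -0.27 and -0.17 with a highest edgeR adjusted p of 0.0875 and those of SLC1A5 between -0.26 and -0.20 with a highest edgeR adjusted p of 0.0738. The ALDH18A1 values lay between -0.21 and -0.15 with a highest edgeR adjusted p of 0.0821 and those of CHAC1 between 0.27 and 0.41 with a highest edgeR adjusted p of 0.0656.

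Neighbouring pathway genes outside the 36 are given as counts and medians only, to be read against the 26.4% of all genes called higher and 26.3% called lower with vemurafenib. Among 13 tested genes of a list of other ATF4 targets, 7 were higher (53.9%) and 4 lower (30.8%) with vemurafenib (median log2 fold change 0.57). NUPR1, a stress-induced nuclear protein, rose by 2.46 (SE 0.22, edgeR adjusted p = 5.8e-08). ADM2, which encodes the peptide intermedin, rose by 1.89 and SESN1, a sestrin like SESN2, by 0.99, whereas STC2, a secreted glycoprotein, fell by 1.11. Of 13 tested serine, glycine and folate enzymes, 6 were lower (46.1%, median -0.14). MAT2A, which makes S-adenosylmethionine, fell by 1.32, MTHFD2L by 0.89 and the mitochondrial serine carrier SFXN1 by 0.75. Of 17 other amino acid enzymes, 3 were higher (17.6%) and 5 lower (29.4%, near the share of all genes), with ASS1 (argininosuccinate synthase) at 1.08, PRODH (proline dehydrogenase) at 0.95 and PYCR3 (a pyrroline carboxylate reductase) at -0.46. Of 16 other transporters, 2 were higher (12.5%) and 9 lower (56.2%, median -0.32). The glutamate transporter SLC1A1 was at -1.19, the SLC3A2 partner SLC7A6 at -0.68, the proton-coupled transporter SLC36A1 at -0.52 and the lysosomal glutamine transporter SLC38A7 at 0.50.

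**Figure D4:**
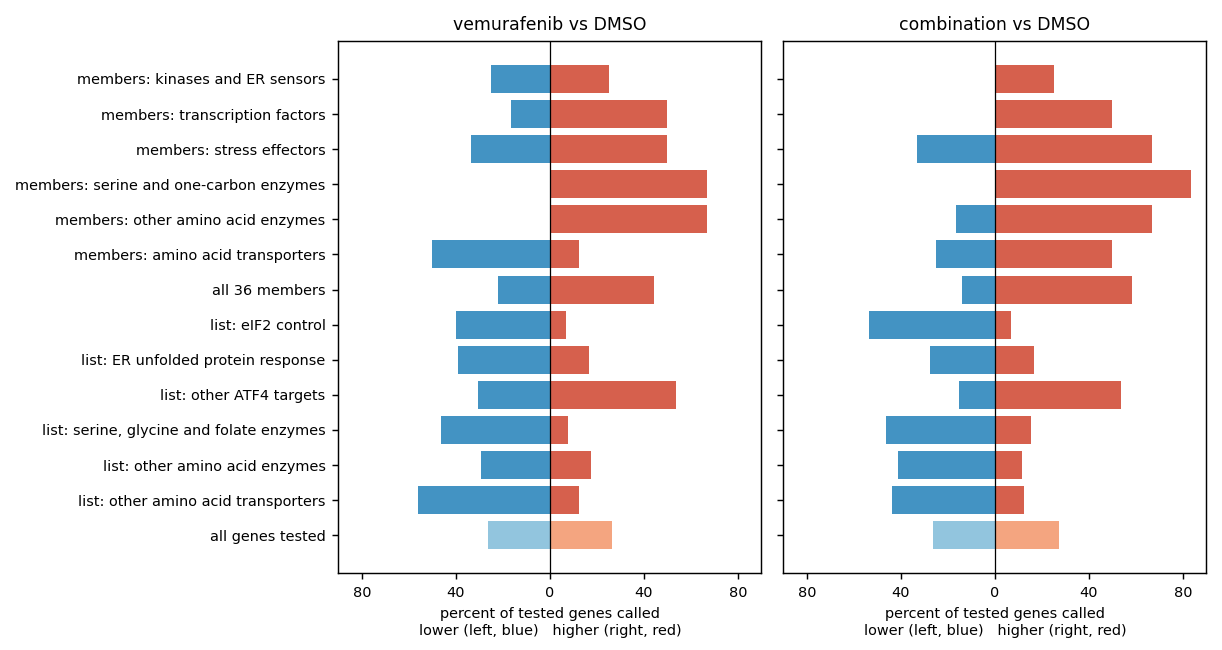
Percent of tested genes called lower (blue, left) and higher (red, right) against DMSO for vemurafenib and for the combination, for the members by role, all 36 members, the other pathway lists and, in pale colours, all genes tested. The 2 member groups of enzymes have bars to the right with vemurafenib and none to the left, while most of the other lists have the longer bar on the left.

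Lists for the control of eIF2 and for the ER unfolded protein response were read against the same shares of all genes, 26.4% higher and 26.3% lower with vemurafenib. Of 15 genes that control eIF2, 1 was higher (6.67%) and 6 lower (40%), with a median of -0.18. EIF2S1, the eIF2 subunit that the stress kinases phosphorylate, fell by 0.77 (SE 0.07, edgeR adjusted p = 6.09e-08). EIF2B2 and EIF2B3, subunits of its exchange factor, fell by 0.60 and 0.50, and IMPACT, an inhibitor of GCN2 activation, rose by 0.39. Of 18 genes of the ER unfolded protein response, 3 were higher (16.7%) and 7 lower (38.9%). The ER proteins SDF2L1, MANF and DNAJB11 fell by 1.02, 0.72 and 0.50, which are chaperones or chaperone partners, and the ER factor ATF6B rose by 0.48. With the combination the eIF2 list had 1 higher (6.67%) and 8 lower genes (53.3%), beside 27.1% of all genes higher and 26.5% lower. The ER list had 3 higher (16.7%) and 5 lower (27.8%, near the share of all genes).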

How the data were processed

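RNA was isolated from A375 cells after 8 h of treatment, and poly(A) libraries were sequenced as paired ends. The authors aligned the reads with STAR 2.5.3a to GRCh38.p10 and counted fragments per GENCODE 27 gene with summarizeOverlaps in union mode with strand ignored; they deposited these raw counts without normalization. Union counting leaves out a fragment that falls on exons of 2 genes, which lowers members that overlap a neighbour. Whether this loss was alike in every group was not tested. Positions and exon lengths were taken from GENCODE 29 on the same build.

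Groups and replicate numbers came from the labels. Total counts per library ran from 13510235 to 21534377. Precision for a gene depends on its own counts and on the spread between its replicates, and members were counted from 8 times (ASNS) upward. Genes were filtered with filterByExpr by group, leaving 16740, scaled by TMM (edgeR 4.0.16 under R 4.3.3) and tested with edgeR's quasi-likelihood test on all 12 libraries with no block. Benjamini-Hochberg adjustment of p-values ran over all 16740 genes, with a threshold of 0.05; the standard error is the log2 fold change divided by the square root of F. The model was tested on simulated counts with known changes. There edgeR recovered 98 of 100 changes of 2 and 80 of 100 changes of 0.7 on the log2 scale, with 8 false calls. Every simulated gene was given the same dispersion (0.00653), and changes smaller than 0.7 were not simulated. Recovery of the smaller changes reported here was therefore not tested. Exons were compared with all other genes by blastn 2.17.0. Replicates of a group differed by more than sampling noise for every pair (chi-square per degree of freedom from 2.62 to 23.0), so each library was kept as its own sample.

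The members and lists were chosen with earlier results of these data known. Every member is named. Values in single libraries are given for members called with tretinoin, against vemurafenib or in the interaction. They are also given for the 2 greatest changes with vemurafenib per role, and for ATF4 and DDIT3. These values cover the groups compared at that point, not always all 4 groups. From each other list up to 4 genes with the greatest called change with vemurafenib are named, apart from genes not reported here. The alternatives were DESeq2 1.42.0 with and without a beta prior (the authors' tool, used with shrinkage), its size factors, total counts alone, no count filter, at least 10 counts in every library, a fit of the 2 groups in question alone, a block for replicate number, and each library left out in turn.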

Additional observations from a re-analysis of the deposited data

Results flagged for a closer look

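DDIT4 was picked out because the effect of tretinoin on it differed with and without vemurafenib by the interaction test. The interaction was 0.64 on the log2 scale (SE 0.10, edgeR adjusted p = 0.00553), from a log2 fold change of -0.03 for tretinoin against DMSO and 0.61 for the combination against vemurafenib. All 3 combination libraries lay above the other 9. Leaving out any 1 library kept the call, with values from 0.58 to 0.69.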

How the results depend on the processing

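Of 1735 values of called members under the 20 alternatives, 1604 kept direction and call, 130 lost the call and 1 turned: ALDH18A1, combination against DMSO, at 0.0051 under total counts. Calls that held in all alternatives numbered 17 of 24 for vemurafenib and 19 of 26 for the combination against DMSO, 4 of 8 against vemurafenib, 19 of 24 against tretinoin, 0 of 4 for tretinoin and 1 of 1 for the interaction. In the counts that follow, percentages in brackets are the share of all genes called in the same fit and direction. Member counts at an unadjusted p have no such share from their own fit. In the main fit 11.4% of all genes passed unadjusted upward and 12% downward with tretinoin, and 7.71% downward against vemurafenib. The DESeq2 Wald test gave 3 members lower with tretinoin (3.79%), 2 lower against vemurafenib (2.63%) and 4 higher in the interaction (0.753%). The beta prior gave 3 lower with tretinoin (3.75%) and 2 lower against vemurafenib (2.64%). DESeq2's size factors gave 2 lower against vemurafenib (2.29%). Total counts alone moved the median of all genes to 0.21 for vemurafenib, 0.19 for the combination against DMSO, 0.11 against tretinoin and -0.11 for the interaction. That scaling gave 6 higher (4.53%) and 0 lower (1.04%) with tretinoin, with 3 downward at an unadjusted p below 0.05. It gave 5 lower with vemurafenib (15.7%) and 3 lower with the combination (17.4%). It also gave 2 lower against vemurafenib (2.59%) and 1 lower against tretinoin (19.5%). No count filter gave 2 lower with tretinoin (1.92%), 2 lower against tretinoin (9.24%) and 4 higher in the interaction (0.93%). At least 10 counts in every library, which dropped ASNS, gave 0 lower with tretinoin (2.18%, 7 members unadjusted) and 2 lower against tretinoin (26.5%). Only the 2 groups compared gave 0 higher (1.54%) and 0 lower (0.468%) with tretinoin, where 7 and 6 members passed unadjusted. Against vemurafenib that fit gave 14 higher (3.58%) and 2 lower (4.2%). The replicate block gave 0 higher (2.56%) and 0 lower (1.31%) with tretinoin, where 7 and 8 members passed unadjusted. It gave 0 lower against vemurafenib (1.66%, 2 members unadjusted). Its other counts were within 1.5 times those of the main fit. Same-numbered libraries did not deviate together (correlation -0.14 to 0.087 over 18 pairs, and 2 of 12 libraries correlated best with their own number), so the number was taken as a name only. Each library was also left out in turn. With tretinoin the counts ran from 0 to 5 higher (1.59% to 4.15%) and 0 to 3 lower (0.616% to 3.82%). In the same order they were 13 to 18 (22.2% to 28.4%) and 7 to 11 (22.9% to 28.9%) with vemurafenib. With the combination they were 18 to 22 (23% to 28.9%) and 4 to 6 (23.4% to 29.2%). Against vemurafenib they were 4 to 10 (1.49% to 3.14%) and 0 to 2 (1.19% to 3.7%). Against tretinoin they were 18 to 20 (20.4% to 23.9%) and 2 to 6 (22.3% to 24.9%). In the interaction 1 to 4 were higher (0.181% to 0.707%). The interaction could not be fitted with the beta prior or with 2 groups alone. The cause was not tested for any of these shifts. Depth limits ASNS most, at 8 to 53 counts a library.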

Other observations

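Among the other ATF4 targets, GDF15 and STC2 encode secreted proteins and were chosen for mention after their values were seen. GDF15, a stress cytokine, stood at 5.41, 5.40 and 4.59 CPM in DMSO and 7.99, 7.73 and 8.76 CPM in tretinoin, and rose by 0.68 on the log2 scale (SE 0.13, edgeR adjusted p = 0.00602). In vemurafenib it stood at 3.06, 3.80 and 3.30 CPM, a fall by 0.59 (SE 0.15, edgeR adjusted p = 0.00282), and in the combination at 6.05, 5.39 and 6.20 CPM, which is 0.79 above vemurafenib (SE 0.14, edgeR adjusted p = 0.00189). Its interaction was 0.11 (edgeR adjusted p = 0.814), so tretinoin was not shown to act differently on GDF15 with and without vemurafenib. STC2 stood at 34.4, 47.9 and 45.0 CPM in DMSO, 29.2, 30.3 and 32.0 in tretinoin, 19.5, 20.2 and 19.2 in vemurafenib and 26.0, 28.0 and 23.3 in the combination. It passed the test as lower than DMSO in each treated group. In the combination it was called higher than in vemurafenib (2.27% of all genes were), the opposite direction to tretinoin against DMSO. The interaction of STC2 was 0.87 (SE 0.15, edgeR adjusted p = 0.00901). DMSO replicate 1 was the lowest DMSO library for STC2. The values of GDF15 and STC2 under the alternatives were not examined, so how far their calls hold was not tested.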
